A study of Mus musculus with 15 samples.

Results

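Foxf1, Ebf1, Ebf3, Pou4f1, Cdx2, Satb1, Isl2, Zfp503 and Sp6 are 9 genes for transcription factors that act in development, and all 9 were found by name among the 13893 genes of the knockout dataset and the 15023 genes of the second dataset. They were chosen by their low values in FAM3C KO and LIFR KO cells beside shPCBP1 cells, so their levels in those groups are given as a description with no test. All libraries came from NMuMG, a line of normal mouse mammary gland epithelial cells. Every cell of the knockout dataset carried an shRNA knockdown of PCBP1, which encodes an RNA-binding protein. The 4 shPCBP1 libraries were the unaltered knockdown line and 3 CT clones treated with Cas9 but no gene-specific guide RNA. FAM3C KO (3 clones), LIFR KO (3 clones) and a FAM3C/LIFR double KO (1 library) were made by CRISPR-Cas9 in the knockdown cells. FAM3C is a secreted protein that binds the LIF receptor, LIFR. Each line gave 1 RNA sample, so the spread within a group is the spread between clones. The second dataset held 2 shPCBP1 samples and 2 control samples, which the labels give as NMuMG with no treatment and the study's text describes as cells with a nonspecific shRNA.

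Each of these proteins acts on transcription and is known for setting the identity of a tissue. Foxf1, a forkhead factor, acts in the mesenchyme of lung and gut downstream of Hedgehog signals. Ebf1 is required for B cells, and its relative Ebf3 acts in neurons and muscle. Pou4f1 (also called Brn3a) and the LIM homeobox factor Isl2 serve sensory and motor neurons. Cdx2 specifies trophectoderm and intestinal epithelium. Satb1 organizes chromatin in thymocytes, Zfp503 is a zinc finger repressor of the NET family that has been linked to mammary epithelium, and Sp6 (epiprofin) acts in tooth and limb epithelium. Genes of this kind are silent in most adult cell types.

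On build GRCm38, as the second dataset gives the gene spans, the 9 genes lie as follows, with Foxf1 at chr8:121084386-121088145 on the plus strand, Ebf1 at chr11:44617317-45008092 on the plus strand, Ebf3 at chr7:137193673-137314446 on the minus strand, Zfp503 at chr14:21983959-21989602 on the minus strand, Pou4f1 at chr14:104461676-104468000 on the minus strand, Satb1 at chr17:51736187-51833291 on the minus strand, Sp6 at chr11:97013394-97024735 on the plus strand, Isl2 at chr9:55538672-55546181 on the plus strand and Cdx2 at chr5:147300805-147307271 on the minus strand. The values that follow are per gene.

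The start regions of 4 members are shown because 3 of them (Ebf3, Zfp503 and Pou4f1) were at or near the lowest value in every FAM3C KO clone, LIFR KO clone 3 and the double KO, while the other, Cdx2, was well above it in every library. Satb1, which has several starts, and Foxf1, for which no start region was held, were as low in those libraries and are not shown. Each sequence is the 250 bases before the RefSeq start, on build GRCm38.p6, written 5′ to 3′ with every CG dinucleotide in capitals.
Ebf3 (chr7:137314446-137314695, minus strand): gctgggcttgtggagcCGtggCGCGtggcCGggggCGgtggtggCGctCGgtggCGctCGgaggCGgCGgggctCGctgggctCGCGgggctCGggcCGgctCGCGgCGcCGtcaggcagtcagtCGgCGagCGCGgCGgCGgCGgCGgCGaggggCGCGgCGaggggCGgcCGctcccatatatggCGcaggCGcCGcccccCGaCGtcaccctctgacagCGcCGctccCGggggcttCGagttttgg
Zfp503 (chr14:21989602-21989851, minus strand): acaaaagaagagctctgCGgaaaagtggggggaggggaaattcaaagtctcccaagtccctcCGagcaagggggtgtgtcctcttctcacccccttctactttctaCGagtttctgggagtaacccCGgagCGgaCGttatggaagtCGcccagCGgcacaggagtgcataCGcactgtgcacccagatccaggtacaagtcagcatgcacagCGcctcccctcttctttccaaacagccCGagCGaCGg
Pou4f1 (chr14:104468000-104468249, minus strand): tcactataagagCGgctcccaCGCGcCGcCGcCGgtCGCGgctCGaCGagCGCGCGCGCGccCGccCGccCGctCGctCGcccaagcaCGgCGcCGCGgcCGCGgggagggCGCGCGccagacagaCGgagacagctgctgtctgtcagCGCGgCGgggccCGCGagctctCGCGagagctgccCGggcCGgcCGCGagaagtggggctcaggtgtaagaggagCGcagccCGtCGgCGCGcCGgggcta
Cdx2 (chr5:147307250-147307499, minus strand): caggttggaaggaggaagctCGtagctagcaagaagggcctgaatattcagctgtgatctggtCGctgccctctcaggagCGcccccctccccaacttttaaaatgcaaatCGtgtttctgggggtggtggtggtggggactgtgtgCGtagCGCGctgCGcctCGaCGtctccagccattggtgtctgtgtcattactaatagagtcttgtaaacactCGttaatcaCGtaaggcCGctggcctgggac

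Windows of 300 bases (250 before and 50 after a start) were held for 7 of the 9 members, 12 windows in all, as Ebf1 has 2 starts and Satb1 has 5. The median over all 32851 mouse windows was 7 CG dinucleotides. The Pou4f1 window held 57, a number reached by 0.152% of all windows, and the Ebf3 window held 46, reached by 1.65%. The Zfp503 window held 19 and the Cdx2 window 18, counts that 28.1% and 29.7% of all windows reached. Of the members whose sequence is not shown, the Satb1 windows held 3 to 45, the Ebf1 windows 9 and 17, and the Isl2 window 23. The STAT motif TTCNNNGAA was in 0 of the 12 member windows, against 8.3% of all windows, searched on both strands. The E-box CANNTG was in 7 of the 12 (4 genes: Ebf1, Pou4f1, Cdx2 and Satb1), against 72.3% of all windows. TATAAA was in 0 of the 12, against 13.6% of all windows. No member window held motifs of different kinds, so none overlapped. These matches describe letters in short windows and say nothing of whether a factor binds there.

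The values are CPM, read counts scaled to the size of their library. No gene is listed at 0. The lowest value of a library, here called 1 step, was 0.0213 to 0.0624 CPM in the knockout dataset and 0.0001 CPM throughout the second, and the files do not say whether a gene at that value had a read. Taking that step as 1 read (83 to 84.4% of values under 100 steps were whole multiples of it, within 0.02), the knockout libraries held 16031859 to 46901675 reads; the depth of the second dataset is unknown. The double KO and LIFR KO clones 2 and 3 stood apart as libraries. Mitochondrial transcripts made up 7.16 to 8.58% of their CPM, against 3.14 to 4.06% elsewhere, and their differences from shPCBP1 followed the GC content of the gene (Spearman's rho of -0.76 to -0.7 across 12603 genes, which are not independent, against -0.29 to 0.24). LIFR KO clone 1 was not among them, so the levels of most members in LIFR KO are given by clone. In the second dataset Pcbp1 had 287 and 312 CPM in controls and 14.1 and 14.2 CPM under knockdown, in the direction the labels give. Fam3c ranged from 26.4 to 42.9 CPM in FAM3C KO and from 47 to 59.4 CPM in shPCBP1. For Lifr, LIFR KO clones 1, 2 and 3 had 34.9, 29.3 and 14.6 CPM, against 25.8 to 40.2 CPM in shPCBP1, so the transcript of the targeted gene did not mark clones 1 and 2 as edited, and the labels of those clones could not be checked from it. The study reports screening its knockout lines by PCR for an excised coding fragment and by immunoblot for the protein, neither of which is part of these data.

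Foxf1 and Ebf1 were low in both knockouts. Among shPCBP1 lines, Foxf1 had 2.56 CPM (unaltered line), 3.48 CPM (CT1), 9.05 CPM (CT2) and 12.9 CPM (CT3). In FAM3C KO clone 2 it was at the lowest value, and in clones 1 and 3 at 0.133 and 0.154 CPM, 2 and 3 steps above the lowest. LIFR KO clones 1, 2 and 3 had 0.161, 0.0832 and 0.129 CPM, 1 to 2 steps above the lowest. No knockout library came near the shPCBP1 range, which itself spanned 5.05 times from the lowest to the highest line. Group means of log2(CPM + 0.1) differed from shPCBP1 by -4.84 in FAM3C KO and by -4.71 in LIFR KO; the added 0.1 makes such differences too small for genes near 0. The double KO stood at 0.187 CPM, 3 steps above its lowest value and below every shPCBP1 line.

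Ebf1 had 1.93 CPM in the unaltered line, 10.6 in CT1, 7.96 in CT2 and 13.3 CPM in CT3. It was at the lowest value in FAM3C KO clones 2 and 3, in LIFR KO clones 1 and 3 and in the double KO. LIFR KO clone 2 had 0.0832 CPM, 1 step above. The exception was FAM3C KO clone 1, where Ebf1 stood at 0.753 CPM, 16 steps above the lowest and still below the unaltered line. Its mean log2(CPM + 0.1) differed from shPCBP1 by -4.77 in FAM3C KO and by -5.45 in LIFR KO. The unaltered line was the lowest of the 4 shPCBP1 lines for both Foxf1 and Ebf1.

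**Figure D1:**
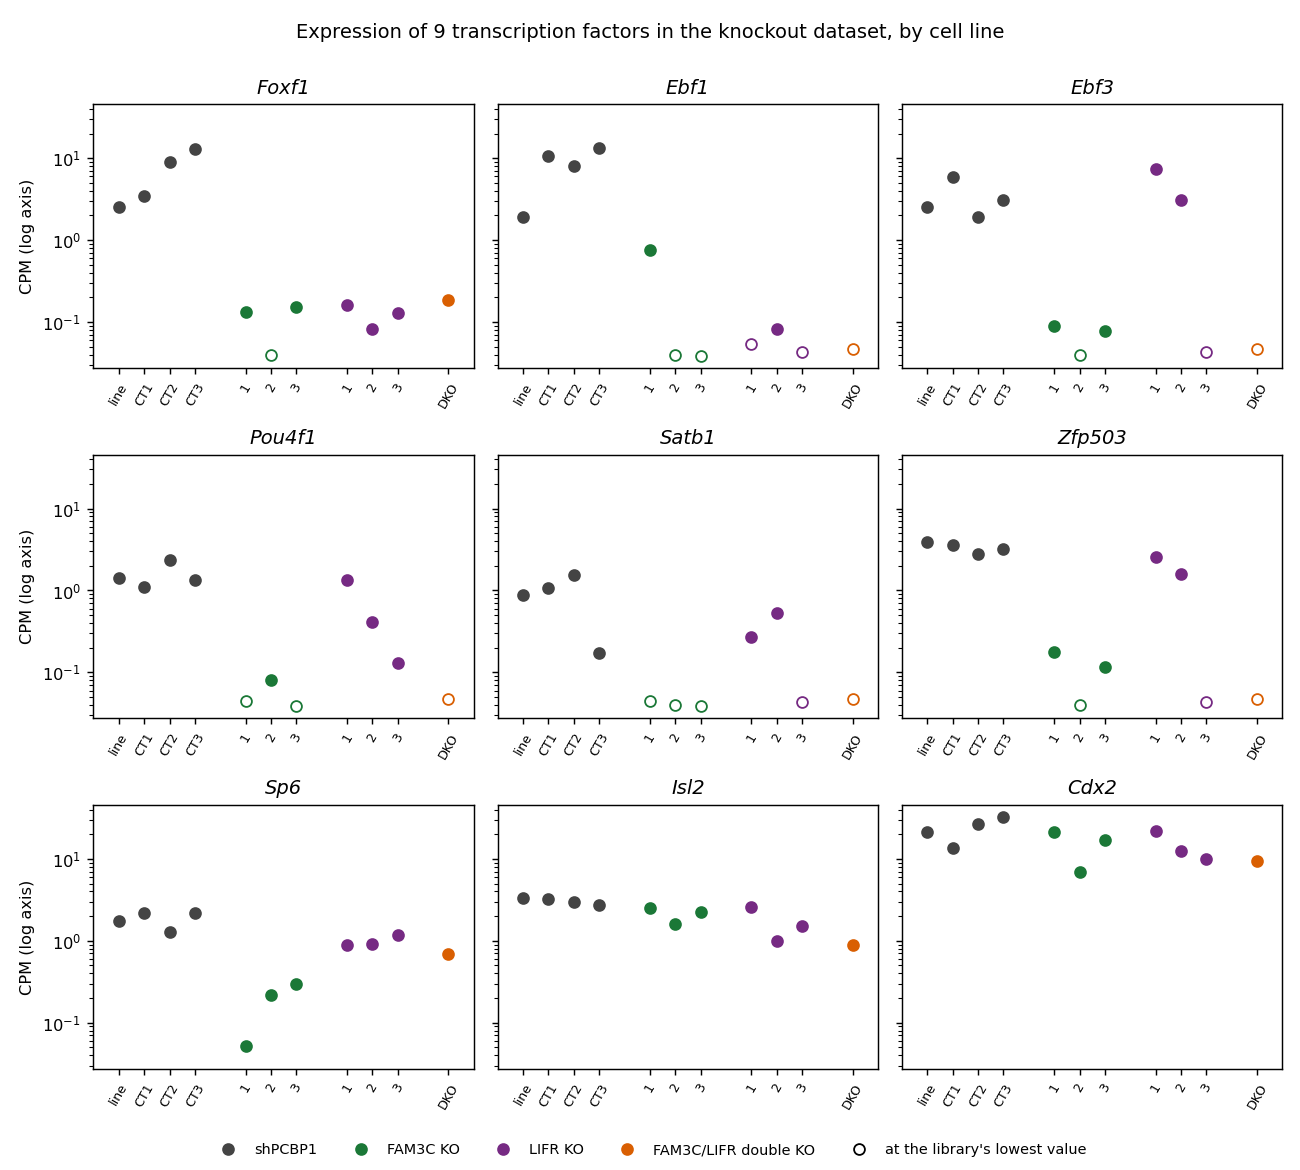
CPM (log axis) of each of the 9 genes in every library of the knockout dataset; line is the unaltered shPCBP1 line, CT1 to CT3 the control clones and DKO the double KO, and open circles are values at the lowest of that library. Foxf1 and Ebf1 were low in every knockout library, and Isl2 and Cdx2 were present in all 11. In LIFR KO clone 1, Ebf3 and Pou4f1 were not below the shPCBP1 range, while Zfp503 (2.57 CPM) was below it. Satb1 in that clone was at 0.268 CPM, only 4 steps above the lowest value.

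Ebf3, Zfp503, Pou4f1 and Satb1 formed a second group, low in all 3 FAM3C KO clones but not in every LIFR KO clone. Ebf3 had 2.54 CPM in the unaltered line, 5.82 in CT1, 1.94 in CT2 and 3.12 CPM in CT3. It was at the lowest value in FAM3C KO clone 2 and 1 step above it (0.0886 and 0.0768 CPM) in clones 1 and 3. In LIFR KO clones 1 and 2 it stood at 7.37 and 3.12 CPM, the first above every shPCBP1 line, and in clone 3 at the lowest value. The 3 LIFR KO clones thus spanned 171.91 times, and their mean describes none of them. In the double KO Ebf3 was at the lowest value.

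Zfp503 followed the same clones. It had 3.87 CPM in the unaltered line, 3.54 in CT1, 2.79 in CT2 and 3.23 CPM in CT3, a spread of 1.39 times. FAM3C KO clones 1 and 3 had 0.177 and 0.115 CPM, 3 and 2 steps above the lowest, and clone 2 was at it. LIFR KO clones 1 and 2 had 2.57 and 1.58 CPM, below every shPCBP1 line but far above the lowest value, at which clone 3 and the double KO stood. In FAM3C KO the mean log2(CPM + 0.1) differed from shPCBP1 by -4.08 for Zfp503 and by -4.25 for Ebf3.

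Pou4f1 ranged from 1.09 to 2.34 CPM over the shPCBP1 lines. It was at the lowest value in FAM3C KO clones 1 and 3 and the double KO, and 1 step above it in FAM3C KO clone 2 (0.08 CPM). In LIFR KO it fell into 3 levels, 1.34 CPM in clone 1, 0.416 CPM in clone 2 and 0.129 CPM in clone 3. Clone 1 lay within the shPCBP1 range and the other two below it. Satb1, a low member throughout, did not pass the filter of a mean of at least 0.5 CPM. It had 0.873 CPM in the unaltered line, 1.07 in CT1, 1.54 in CT2 and 0.172 CPM in CT3, so CT3 was itself only 4 steps above the lowest value. Satb1 was at the lowest value in every FAM3C KO clone, in LIFR KO clone 3 and in the double KO, and at 0.268 and 0.531 CPM in LIFR KO clones 1 and 2. No fold is given for FAM3C KO, as all its clones were listed at the lowest value.

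Sp6, Isl2 and Cdx2 made up the rest. Isl2 and Cdx2 were well above the lowest value in all 11 libraries, so the word silenced does not describe them, and Sp6 was near it in FAM3C KO clone 1 alone. Sp6 had 1.77 CPM in the unaltered line, 2.17 in CT1, 1.27 in CT2 and 2.16 CPM in CT3. FAM3C KO clones 1, 2 and 3 had 0.0523, 0.215 and 0.3 CPM, and LIFR KO clones 1, 2 and 3 had 0.887, 0.926 and 1.18 CPM. FAM3C KO, LIFR KO and shPCBP1 did not overlap with each other, and the double KO (0.685 CPM) lay between the 2 single knockouts. The mean CPM of shPCBP1 was 9.74 times that of FAM3C KO and 1.85 times that of LIFR KO. Isl2 was at 2.71 to 3.31 CPM in shPCBP1, 1.6 to 2.48 CPM in FAM3C KO, 0.998 to 2.57 CPM in LIFR KO and 0.89 CPM in the double KO. All 7 knockout libraries lay below every shPCBP1 line, although FAM3C KO clone 1 and LIFR KO clone 1 missed the lowest of those lines by little. Cdx2 had 21.1 CPM in the unaltered line, 13.8 in CT1, 26.6 in CT2 and 32.4 CPM in CT3. FAM3C KO clones 1, 2 and 3 had 21.3, 6.92 and 17.2 CPM, and LIFR KO clones 1, 2 and 3 had 21.9, 12.4 and 10 CPM. Groups overlapped for Cdx2, with mean CPM of shPCBP1 1.55 and 1.59 times that of the knockouts, and the double KO was at 9.42 CPM.

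At the exact lowest value (within 0.1%) stood 2, 5 and 3 of the 9 genes in FAM3C KO clones 1 to 3, 1, 0 and 4 in LIFR KO clones 1 to 3, 5 in the double KO and 0 in every shPCBP1 line. Over all 13893 genes, 1.17 to 1.53% were at the lowest value in FAM3C KO, 1.6 to 2.04% in LIFR KO, 2.32% in the double KO and 0.396 to 0.9% in shPCBP1. Since 1 or a few stray reads lift a gene off that value, genes at no more than 4 times it were counted too, a limit set after the values were seen. All 9 members were above it in every shPCBP1 line, as were 12948 of all genes. In every FAM3C KO clone, 5 members (Foxf1, Ebf3, Pou4f1, Satb1 and Zfp503) were within it, against 0.409% of those genes, and Ebf1 was within it in 2 of the 3 clones. In every LIFR KO clone 2 members (Foxf1 and Ebf1) were within it, against 0.44%. Taken by clone, those 2 made up the count in LIFR KO clone 1 (1.93% of genes) and clone 2 (1.95%), while clone 3 (1.97%) and the double KO (2.43%) each had 6, the same genes in both, with Ebf3, Pou4f1, Satb1 and Zfp503 added. All 3 FAM3C KO clones lay below every shPCBP1 line for 8 of the 9 members (12.1% of all genes) and all 3 LIFR KO clones for 5 of the 9 (12.8%). The members were chosen on these contrasts, so nothing is read from those counts beside their background.

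**Figure D2:**
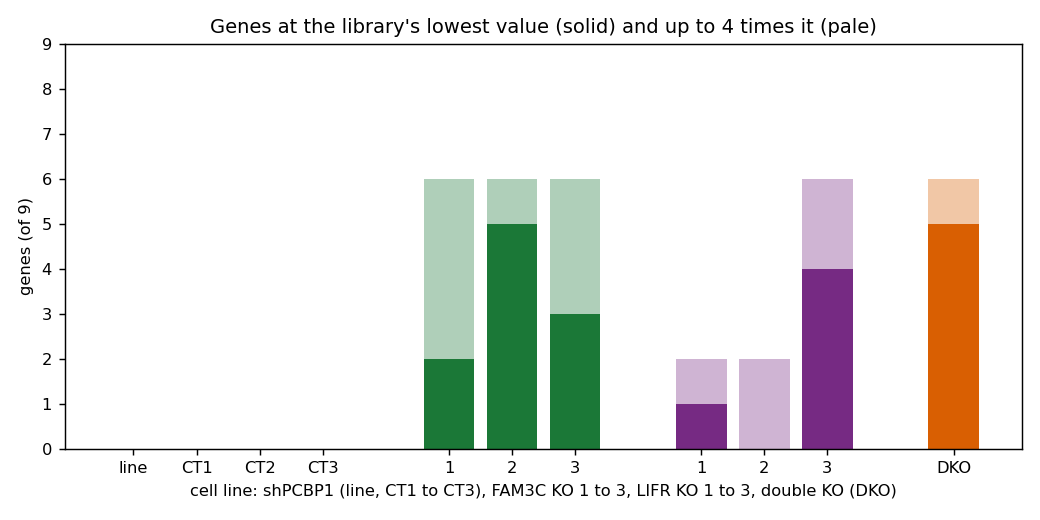
Number of the 9 genes at the lowest value of each library (solid) and at up to 4 times that value (pale), by cell line. FAM3C KO clones 1 to 3, LIFR KO clone 3 and the double KO each had 6 within the limit, LIFR KO clones 1 and 2 had 2, and the shPCBP1 lines had 0.

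The libraries with low values of the second group overlapped in part with those that stood apart in mitochondrial share and GC trend. LIFR KO clone 3 and the double KO were among both, whereas the FAM3C KO clones, with mitochondrial shares of 3.65 to 4.06%, were low without standing apart, and LIFR KO clone 2, at 7.22%, stood apart with Ebf3 within the shPCBP1 range but Zfp503 (1.58 CPM) and Pou4f1 (0.416 CPM) below it. The Lifr transcript was at 10.5 to 19.2 CPM in FAM3C KO, 14.6 CPM in LIFR KO clone 3 and 4.36 CPM in the double KO. The part of mitochondrial share, GC trend or Lifr level in the levels of these genes was not tested.

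The difference between the 2 knockouts was then tested. The choice of members had used these same values, though not this contrast, so the test is not independent of that choice. Of the 8 members that passed the filter, Sp6 alone passed the threshold (limma, adjusted p under 0.07), and it was lower in FAM3C KO. The background of this comparison was 1.45% of 12621 genes lower in FAM3C KO and 6.83% higher. For Sp6 the difference of mean log2(CPM + 0.1) was -2.02 (SE 0.386, limma adjusted p = 0.0366), and each FAM3C KO clone lay below each LIFR KO clone. An exact two-sided permutation test gave p = 0.1, the smallest that 3 clones against 3 allow. With LIFR KO clone 1 in place of the 3 clones the difference was -1.88. With the 2 knockouts fitted alone the limma adjusted p was 0.2, in a fit that called no gene at all. Over 18 alternatives the adjusted p ran from 0.00402 to 0.2, and 7 lost the call.

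Ebf3 (-3.17, SE 1.14), Zfp503 (-2.09, SE 0.867) and Pou4f1 (-1.85, SE 0.587) missed the threshold, with limma adjusted p of 0.111, 0.148 and 0.0847, in a comparison where LIFR KO clone 3 lay near the FAM3C KO clones. Against LIFR KO clone 1 alone, the difference was -5.48 for Ebf3, -3.72 for Zfp503 and -3.23 for Pou4f1. That clone had the highest level of the 3 LIFR KO clones for each of these genes. A single clone gives no spread, so these differences do not show one between the knockouts. Over 18 alternatives, the fit with clone 1 alone among them, the limma adjusted p ran from 0.000978 to 0.387 for Ebf3. It ran from 0.00109 to 0.465 for Zfp503 and up to 0.252 for Pou4f1. Foxf1 (-0.13, SE 0.568), Cdx2 (-0.03, SE 0.446), Isl2 (0.38, SE 0.311) and Ebf1 (0.68, SE 0.8) gave adjusted p of 0.409 to 0.967 by limma; over 18 alternatives that of Isl2 ran from 0.0397 (without LIFR KO clone 1) to 0.908, and the other 3 stayed at 0.408 or more. Standard errors of that size do not show the knockouts to be alike for these 4 genes.

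In the second dataset, which the choice of members did not use, the genes were compared between shPCBP1 cells and control cells. The study had itself picked Cdx2, Ebf3, Isl2, Pou4f1, Satb1, Sp6 and Zfp503 in part for higher values in shPCBP1 cells, so their direction there is not independent evidence. Cdx2 was at 6.12 and 6.05 CPM in the controls and at 11.2 and 12.5 CPM in shPCBP1, and it rose by 0.95 on the log2(CPM + 0.1) scale (SE 0.0759, limma adjusted p = 5.32e-07). Ebf1 ran the other way, at 2.81 and 2.45 CPM in the controls and at 0.609 and 0.721 CPM in shPCBP1. It fell by 1.84 (SE 0.149, limma adjusted p = 5.84e-07). Most genes passed the threshold in this dataset, 42.1% of 11384 higher and 38.0% lower, so a call by itself sets no member apart. Nothing says that its 2 samples a group came from separate cultures, and p-values then measure only the spread between these samples, which may be technical.

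Both controls had Foxf1 at the lowest value, and it stood at 3.4 and 3.38 CPM in shPCBP1. Ebf3 was at the lowest value in both controls and at 1.11 and 0.942 CPM in shPCBP1. Sp6 was at 0.0483 CPM and the lowest value in the controls and at 1.59 and 1.51 CPM in shPCBP1. These 3 passed the filter through the shPCBP1 samples alone and so had to differ, and their calls are not counted as support. The remaining 4 members did not pass the filter. Isl2 stood at 0.968 and 0.961 CPM in shPCBP1, and was at the lowest value and 0.019 CPM in the controls. Zfp503 (0.251 and 0.333 CPM), Satb1 (0.126 and 0.129 CPM) and Pou4f1 (0.0539 and 0.0925 CPM) were low in shPCBP1 and at the lowest value in both controls. Every member but Ebf1 was thus higher in both shPCBP1 samples than in both controls. Of the 11384 genes tested, 42.1% were called higher in shPCBP1 by limma, and most members had been picked for that direction, so nothing is read from this count. The 2 datasets were normalized separately and their levels are not compared.

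**Figure D3:**
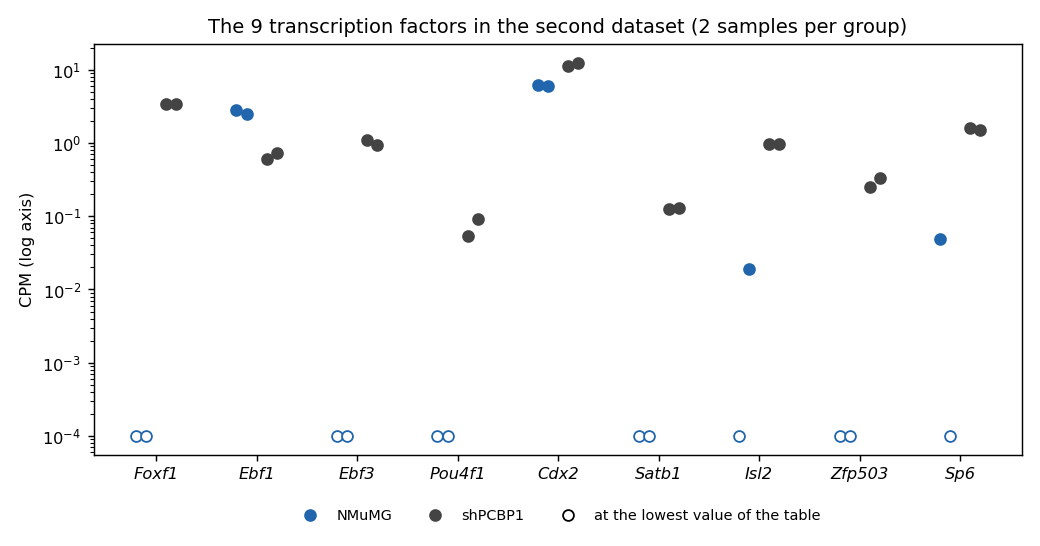
CPM (log axis) of the 9 genes in the 2 control (NMuMG) and 2 shPCBP1 samples of the second dataset, with open circles at the lowest value of the table, 0.0001 CPM. Ebf1 was higher in the controls and the other 8 were higher in shPCBP1. At the lowest value were 6 of the 9 in each control sample and 0 in each shPCBP1 sample. Over all 15023 genes, 7.36 to 7.61% were at that value in the controls and 4.17 to 4.41% in shPCBP1.

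Family relatives were counted to show whether the members' families moved with them. The 8 families (forkhead, EBF, POU, CDX and ParaHox, SATB and CUT, LIM homeobox, NET zinc finger and SP) had 90 listed genes besides the members, of which 51 were in the knockout dataset and 49 were tested. In FAM3C KO against shPCBP1, 0 of the 49 passed the threshold by limma, where 0.222% of all genes were called lower and 0.0872% higher. An unadjusted p under 0.05 was reached by 5. With those 2 groups fitted alone 3 of the 49 passed, in a fit that called many more genes in all. In LIFR KO 3 of the 49 passed, all lower, where 5.55% of all genes were called lower and 0.911% higher. They were Lhx2 (-3.24, SE 0.785, limma adjusted p = 0.0524), Sp8 (-0.88, adjusted p = 0.061) and Foxo3 (-0.53, adjusted p = 0.0529), on the log2(CPM + 0.1) scale. An unadjusted p under 0.05 was reached by 21. The share of all genes at that unadjusted p is not given, so nothing is read from unadjusted counts here or below. With the 2 groups alone or with GC correction 0 of the 49 passed, but those fits called few genes in all, so nothing is read from that loss. The median over the 49 relatives was -0.1 in FAM3C KO and -0.33 in LIFR KO, beside -0.0137 and -0.164 over all genes.

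Foxf2, the closest relative of Foxf1, was at 34.5 to 41.7 CPM in shPCBP1 and 36.7 to 39 CPM in FAM3C KO, while Foxf1 was near its lowest value. Zfp703, the other NET family member and a gene known from breast cancer, was at 62.5 to 76.2 CPM in shPCBP1 and 46.2 to 60.3 CPM in FAM3C KO, where Zfp503 was at most 3 steps above the lowest. Both did not pass the threshold against shPCBP1 (limma adjusted p of 0.0701 to 0.995) and are named as nearest relatives, after their values were seen. Lhx2, a LIM homeobox factor of limb and forebrain, resembled the members in having a knockout range down to the lowest value, with 0.0384 to 1.56 CPM in FAM3C KO, 0.0429 to 0.59 CPM in LIFR KO and the lowest value in the double KO, against 2.67 to 4.97 CPM in shPCBP1. Between the knockouts 5 of the 49 passed by limma, among them Lmx1a (-2.72, adjusted p = 0.0636), a LIM homeobox factor of dopamine neurons, lower in FAM3C KO, and Ebf4 (1.48, adjusted p = 0.0628) and Foxn1 (1.31, adjusted p = 0.0669), higher, beside 6.83% of all genes higher and 1.45% lower. With the 2 groups alone or with GC correction 0 of the 49 passed, in fits that called few or no genes in all, so nothing is read from that loss.

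In the second dataset 40 relatives were tested, of which 18 were higher in shPCBP1 and 16 lower, beside 42.1% of all genes higher and 38.0% lower, so nothing is read from that count. Of the 6 with the largest differences, Onecut1 fell by 3.2 (SE 0.127, limma adjusted p = 1.54e-09), with both groups above the filter. The other 5 passed the filter through 1 group alone and so had to differ, and only their levels are given. Mean CPM in controls and in shPCBP1 was 0.0732 and 5.1 for Sp8, a relative of Sp6 that acts in limb epithelium, 0.0461 and 2.13 for Lhx6, 0.251 and 2.29 for Foxc1, and 0.311 and 1.98 for Foxa1. Foxr2 was at 1.06 and 1.27 CPM in the controls and at the lowest value in both shPCBP1 samples.

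Partners and targets of the members were also listed. Pdx1, the ParaHox gene next to Cdx2 and a factor of the pancreas, had 10.5 and 10.3 CPM in controls and 5.29 and 5.06 CPM under knockdown in the second dataset, a fall of 1 (SE 0.0746, limma adjusted p = 2.95e-07) where Cdx2 rose. Of 7 intestinal genes known as Cdx2 targets, 4 were tested there and all 4 fell, where 38.0% of all genes were called lower, so nothing is read from that count. The log2(CPM + 0.1) difference was -4.75 for Lgals4, -3.02 for Vil1, -2.54 for Krt20 and -0.93 for Cdh17, with limma adjusted p of 1.41e-09 or less. Lgr5, an intestinal marker outside these 7, was at the lowest value in both controls and at 1.35 and 2.1 CPM in shPCBP1. In the knockouts 0 of the 4 passed the threshold against shPCBP1 by limma in either comparison (0 in FAM3C KO and 3 in LIFR KO at an unadjusted p under 0.05). Cdh17 was higher in FAM3C KO than in LIFR KO (1.48, adjusted p = 0.0673 by limma), a call lost with the 2 groups alone and with GC correction. Those fits called few or no genes in all, so nothing is read from that loss. Of 7 tested Hedgehog pathway genes, which act upstream of Foxf1, 0 passed against shPCBP1 in either knockout by limma, and 2 in FAM3C KO and 1 in LIFR KO had an unadjusted p under 0.05. Gli3, whose FAM3C KO clones all lay below every shPCBP1 line, had a difference of -3.64 (SE 0.757, limma adjusted p = 0.106) in FAM3C KO. It was the 1 gene of the 7 that passed in FAM3C KO with the 2 groups alone, and again with GC correction.

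Polycomb complexes and DNA methylation hold developmental genes silent, and their genes were counted too. Of 26 tested Polycomb subunits 0 passed in FAM3C KO by limma, also 0 at an unadjusted p under 0.05, and 2 passed in LIFR KO, Cbx6 (-0.9, adjusted p = 0.0388) and Ezh1 (-0.45, adjusted p = 0.0623), where 13 had an unadjusted p under 0.05. With the 2 groups alone or GC correction 0 of the 26 passed in LIFR KO, in fits that called few genes in all. Of 6 tested DNA methylation enzymes 0 passed in either knockout by limma, and 0 in FAM3C KO and 2 in LIFR KO had an unadjusted p under 0.05. In the second dataset 21 of the 26 Polycomb subunits passed, 10 higher and 11 lower, beside 42.1% of all genes higher and 38.0% lower, so nothing is read from that count. Cbx7, a reader of the Polycomb mark, was at 0.124 and 0.0567 CPM in the controls and 15.4 and 16 CPM in shPCBP1, and passed the filter through shPCBP1 alone.

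Neighbouring genes were examined to show whether the low values extended along the chromosome. Taking the 2 nearest measured genes on either side of each member gave 36 genes, 3.48 to 2460 kb away, of which 35 were tested. None of the 35 passed in FAM3C KO by limma, and 2 had an unadjusted p under 0.05. Their differences ran from -1.27 to 1.18 with a median of -0.09. In LIFR KO 1 passed, Scrn2, 5.2 kb from Sp6 (-0.79, adjusted p = 0.0508 by limma), and 12 had an unadjusted p under 0.05. That call was lost with the 2 groups alone, GC correction and the replicate block, in fits that called few genes in all. The 35 differences in LIFR KO ran from -0.98 to 0.4 with a median of -0.14. Mthfsd, 3.48 kb from Foxf1, stood at a mean of 35.8 CPM in shPCBP1, 35.1 CPM in FAM3C KO and 27.4 CPM in LIFR KO. Obi1, 9.54 kb from Pou4f1, had means of 12.6, 12.2 and 14.2 CPM. 9430038I01Rik, 61.1 kb from Ebf3, had means of 3.38, 2.96 and 2.72 CPM. Low values near 0 were thus not seen in the single closest measured gene of each of these 3 members. On the other side of Foxf1, Irf8 was low in shPCBP1 already, with means of 0.136, 0.0704 and 0.046 CPM, and was the neighbour not tested. The lowest difference in FAM3C KO, -1.27, was that of Slain1, on the other side of Pou4f1 (means of 4.87, 2.83 and 4.22 CPM).

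**Figure D4:**
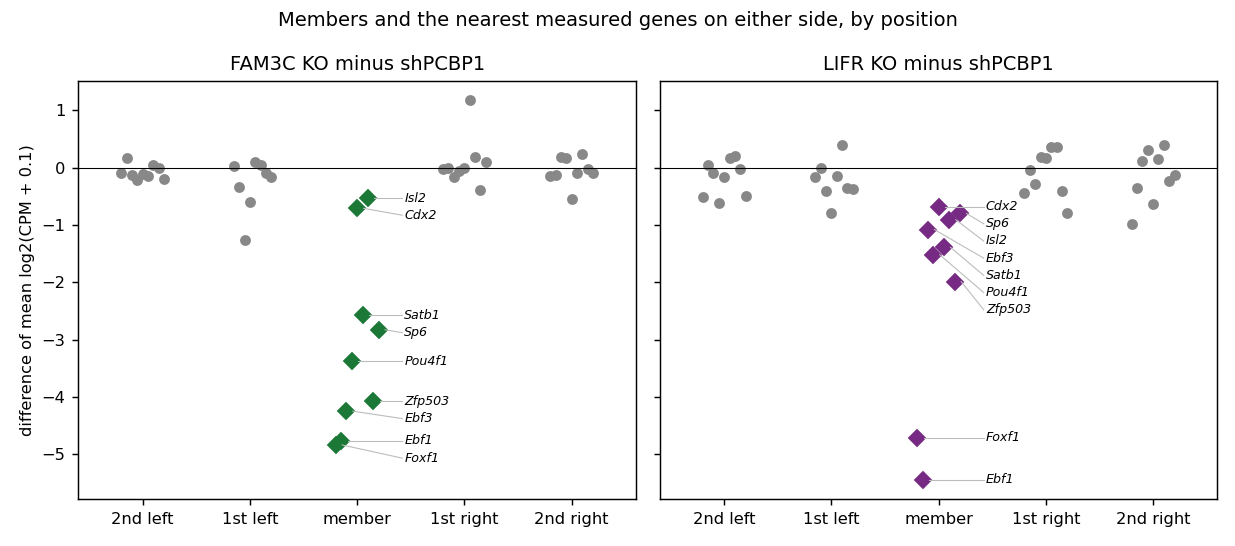
Difference of mean log2(CPM + 0.1) from shPCBP1 for the 9 members (coloured diamonds) and the 2 nearest measured genes on each side (grey points), in FAM3C KO (left panel) and LIFR KO (right panel). The neighbours lie between -1.27 and 1.18, while Foxf1 and Ebf1 lie below -4.7 in both panels.

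Other genes with like patterns were sought among those with a mean of at least 0.5 CPM, by Pearson's r of log2(CPM + 0.1) over the 11 libraries. These libraries share groups and 1 parental line, and r is given as a description. Zfp503 was most like Maged2 (r = 0.985) and Irx3 (r = 0.982), and Pou4f1 had the same pair (0.959 and 0.962). Irx3, a homeobox factor of neural and limb patterning, was at the lowest value in every FAM3C KO clone, in LIFR KO clone 3 and in the double KO, and at 1.82 and 1.5 CPM in LIFR KO clones 1 and 2. Maged2 was at the lowest value in the same 5 libraries and at 7.03 and 4.03 CPM in LIFR KO clones 1 and 2.

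Ebf3 was most like Tusc1 and Gli3 (r = 0.978 for each). Tusc1 was at the lowest value in those 5 libraries too. Gli3, a transcription factor of the Hedgehog pathway, was at 15.1 to 46.9 CPM in shPCBP1, 35.7 and 26.4 CPM in LIFR KO clones 1 and 2, and 1.59 to 3.45 CPM in the other knockout libraries. Foxf1 was most like Nav3 (r = 0.98), at the lowest value in every FAM3C KO clone and in LIFR KO clones 1 and 2, and Dok7 (0.979). Ebf1 was most like Tspan32 (0.966) and Nav3 (0.95), and Satb1 most like Ccdc149 (0.934) and Cyp2d22 (0.921). Among Sp6, Isl2 and Cdx2, Cdx2 was most like Sbsn (0.972) and G6pdx (0.934), Isl2 was most like Nutf2-ps1 (0.973) and H2-Q4 (0.968), and Sp6 was most like Jazf1 (0.974) and Tpx2 (0.902).

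**Figure D5:**
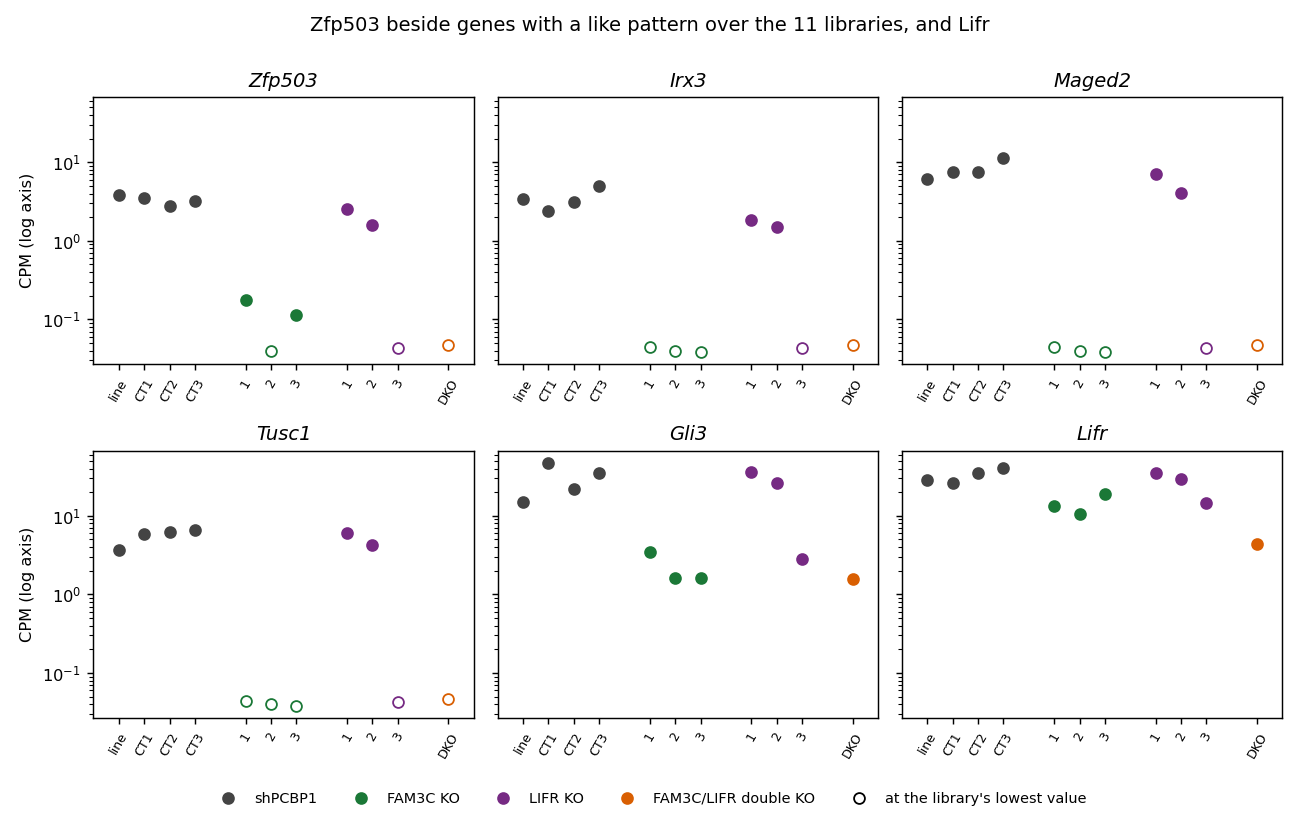
CPM (log axis) by library for Zfp503, for 4 genes whose pattern over the 11 libraries was most like that of Zfp503, Pou4f1 or Ebf3 (Irx3, Maged2, Tusc1 and Gli3), and for Lifr; open circles are at the lowest value of the library. In all 6 panels LIFR KO clones 1 and 2 stand above LIFR KO clone 3 and the double KO.

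Cells of other types would bring their own genes, so marker lists were summed. Epithelial markers (5 of 8 in the knockout dataset, with Epcam, Cldn4 and Esrp1 not among its genes) summed to 2470 to 3170 CPM in shPCBP1, 2000 to 3020 CPM in FAM3C KO and 1210 to 2090 CPM in LIFR KO. Mesenchymal markers (7 of 8) summed to 1500 to 1660, 1660 to 1720 and 1070 to 1620 CPM. Leukocyte markers (2 of 8, without Ptprc or Pax5) summed to 0.275 to 0.374 CPM in shPCBP1, where Ebf1, a B cell factor, reached 13.3 CPM. Neuronal markers (3 of 8) summed to 5.22 to 7.17 CPM in shPCBP1, 5.6 to 7.75 CPM in FAM3C KO and 6.32 to 7.29 CPM in LIFR KO, and endothelial markers (3 of 6) to at most 2.24 CPM in any group. Intestinal markers (5 of 6) summed to 43 to 85.6, 49.9 to 94.1 and 25.8 to 44.6 CPM. In FAM3C KO the lowest epithelial sum lay below the shPCBP1 range and no other sum did. In LIFR KO every epithelial sum lay below it, as did the lowest mesenchymal and intestinal sums. The epithelial markers did not all fall there. Krt8, Krt18, Krt19 and Cldn7 each lay below their shPCBP1 range, while Cdh1 overlapped its own (268 to 344 CPM against 292 to 346 CPM). The part of these sums in the members' levels was not tested. In bulk samples, fewer cells with a transcript and less of it per cell cannot be told apart.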

How the data were processed

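RNA-Seq libraries of total RNA were analysed from 11 lines (knockout dataset) and 4 samples (second dataset). The authors trimmed the reads, aligned them with Bowtie2 to GRCm38 in Partek Flow, annotated them, compared groups with DESeq2 and deposited CPM per library, in which no gene is listed at 0. Gene positions of the knockout dataset belonged to another assembly and were used for gene order and distance only. The deposited group means and fold changes were not used. The members and gene lists were chosen with earlier results of these data known.

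Values were transformed to log2(CPM + 0.1). Genes averaging 0.5 CPM or more in their dataset were fitted by group with limma 3.58.1 (trend) in R 4.3.3, separately per dataset and without the double KO, with a Benjamini-Hochberg adjusted p under 0.07 as threshold. Of the low values 83 to 84.4% were whole multiples of the lowest value, so whole reads were not recovered for nearly all genes and no count test was run. Relatives and partners were named where they passed, up to 6 by size per comparison; some listed genes are not reported here. Alternatives were rescaling by median ratios, a pseudocount of 1, no filter, 2 groups alone, a replicate block, subtraction of the lowest value, GC correction (loess, span 0.3), LIFR KO clone 1 alone and leaving out each sample. The fit was tested on simulated data. Start regions came from RefSeq (GRCm38.p6). Precision is limited by the number of clones.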

Additional observations from a re-analysis of the deposited data

Results flagged for a closer look

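Sp6 differed between the knockouts, with a log2 fold change of -2.02 in FAM3C KO against LIFR KO (limma adjusted p = 0.0366, lower in 3 of 3 FAM3C KO clones), which is why it is listed here. The values were those the choice of members had used. Sp6 stood 0.182, 4.39 and 6.8 steps above the lowest value in FAM3C KO clones 1, 2 and 3, which are not whole steps. An exact two-sided permutation test gave p = 0.1 for Sp6, and 11 of 18 alternative fits kept its call, with a limma adjusted p of up to 0.2. No other member passed the limma threshold in that comparison, and no shPCBP1 line stood apart from the other 3 by Dixon's test for any member.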

How the results depend on the processing

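Counts of genes past the threshold (limma) depended on the fit. FAM3C KO against shPCBP1 had 39 calls, 1040 with the 2 groups alone, 238 with GC correction and 3 (without CT1) to 354 (without LIFR KO clone 3) leaving out 1 library. LIFR KO against shPCBP1 had 816 calls (115 higher, 701 lower), 489 after rescaling by median ratios (188 higher, 301 lower), 34 with the 2 groups alone, 39 with GC correction, 280 with LIFR KO clone 1 alone and 5 (without CT2) to 7232 (without LIFR KO clone 1) leaving out 1 library. FAM3C KO against LIFR KO had 1045 calls (862 higher, 183 lower; 502 higher and 322 lower after rescaling), 0 with the 2 groups alone (2245 at an unadjusted p under 0.05), 70 with GC correction and 1 (without FAM3C KO clone 3) to 6674 (without LIFR KO clone 1) leaving out 1 library. The second dataset had 9123 calls and 8011 to 10365 under its alternatives. With a replicate block the counts were 15, 10, 0 (3005 at an unadjusted p under 0.05) and 9235 in that order; deviations of same-numbered samples correlated by -0.18 to 0.15, so the samples share only a number.

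Of the neighbours, 0 passed in FAM3C KO (2 at an unadjusted p under 0.05), 3 with the 2 groups alone, 1 with GC correction and 0 to 1 leaving out 1 library. In LIFR KO 1 passed, and 0 did with the 2 groups alone, GC correction, LIFR KO clone 1 alone or the replicate block (9, 5, 1 and 7 at an unadjusted p under 0.05), and 0 to 19 leaving out 1 library, the most without LIFR KO clone 1. The median log2 difference of the 8 members that passed the filter was -3.73 in FAM3C KO, -1.6 with a pseudocount of 1, and -1.3 in LIFR KO, -0.3 with LIFR KO clone 1 alone and -2.22 to -0.88 leaving out 1 library. Of 248 member differences from shPCBP1 recomputed, 231 moved by less than the spread between replicates and 17 by more. All 45 alternatives for the 5 members tested in the second dataset kept their call. Among these, Foxf1, Ebf3 and Sp6 had to differ, and most genes passed there, so nothing is read from that count. The causes were not tested. Precision is limited by 3 clones a knockout.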
